A study of Mus musculus with 21 samples.

Results

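The 9 genes described here are the members of the EGF receptor (ErbB) family and its ligands that were picked by name from the deposited gene table: 3 receptors (Egfr, Erbb2 and Erbb3) and 6 ligands (Areg, Ereg, Hbegf, Epgn, Tgfa and Btc). They are 9 of 23713 genes in the table, and all 9 passed the filter on low counts in every comparison. Bulk RNA of tail keratinocytes, the cells that build the epidermis, was sequenced from mice, and libraries of mice carrying basal cell carcinoma (BCC) were set against those of tumour-free epidermis (Con). The libraries are 3 SmoM2 Con and 4 SmoM2 BCC (day 29 after tumour induction, batch A), 3 Gnas-eKO Con and 4 Gnas-eKO BCC (day 42, batch B), and 3 PKI Con and 4 PKI BCC (day 57, batch C), 21 in all. Model, batch and day cannot be told apart, so BCC was compared with Con within a model, and between models only the differences BCC against Con were compared. SmoM2 is an activated Smoothened, the membrane protein through which Hedgehog signals. Gnas codes for Gs-alpha, the G protein subunit that turns on cAMP synthesis, and PKI is a peptide that blocks protein kinase A, the kinase that cAMP activates. The promoter or Cre that drives each allele, the mouse strain and age, and what the Con mice carry are not given in the sources used here.

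ErbB receptors are tyrosine kinases that pair on binding a ligand and signal through adaptors to the RAS-ERK cascade and to PI3 kinase. EGFR binds all 6 of these ligands, ERBB2 has no known ligand of its own and acts as the preferred partner, and ERBB3, a weak kinase, binds neuregulins and couples strongly to PI3 kinase. The ligands are made as membrane-bound precursors that metalloproteases such as ADAM10 and ADAM17 cut loose. In the epidermis the family is known for keratinocyte growth and survival, wound closure and the hair cycle.

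Library totals ranged from 16645810 to 22251107 rounded counts, and 3 counts were worth at most 0.190 CPM (a gene's counts scaled to a common library size, here corrected by the trimmed mean of M values, TMM). The summed level of 10 keratinocyte markers was 31320 to 76820 CPM over the 21 libraries, against at most 5.45 CPM for 6 endothelial markers. Gnas itself was at 172 to 178 CPM in the 3 Gnas-eKO Con libraries and at 114, 89.4, 50.6 and 65.5 CPM in Gnas-eKO BCC replicates 1 to 4. Gnas-eKO BCC replicate 2 stood apart from its group: on the first principal component it scored -13.4, the other 3 BCC libraries of that model 42.1 to 44.0 and the Con libraries -42.2 to -32.7. Xist and Y-linked genes showed females and males in every group. The labels do not say that replicates came from separate animals, although the table's headers carry animal names, so p-values measure the spread between these libraries. In those headers the SmoM2 BCC names carry another prefix than the SmoM2 Con names, so that prefix and the tumour cannot be told apart in that model.

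The receptor genes lie on GRCm38 at chr11:16752203-16918158 (Egfr, plus strand), chr11:98412470-98437716 (Erbb2, plus strand) and chr10:128567523-128589652 (Erbb3, minus strand). They were the most abundant members. Over the 9 Con libraries, levels in CPM per kilobase of merged exons were 31.3 ± 2.46 for Erbb2 (SD, n = 9), 26.4 ± 2.39 for Erbb3 and 17.6 ± 0.751 for Egfr. Tgfa led the ligands at 4.00 ± 0.764, followed by Ereg at 2.47 ± 1.09, Hbegf at 2.19 ± 1.08, Btc at 1.92 ± 1.11, Epgn at 1.67 ± 0.890 and Areg at 0.772 ± 0.422 CPM per kilobase. The ranges of Erbb2 (28.3 to 35.6) and Erbb3 (23.2 to 30.8) overlapped, as did those of every ligand with its neighbour in this order. Egfr (15.8 to 18.2) lay below every Erbb3 value and above every Tgfa value (2.95 to 5.10). Ereg and Hbegf changed places when the longest annotated transcript replaced the merged exons.

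In PKI, 5 of the 9 genes rose in BCC and 1 fell, against 18.7% of all 16397 genes tested that rose and 15.8% that fell. The risers were the ligands Areg, Hbegf, Epgn and Tgfa and the receptor Erbb3, and the gene that fell was the ligand Btc. In SmoM2, 0 of 9 rose and 1 fell, again Btc, against 16.2% and 13.5% of 16370 genes. In Gnas-eKO, 0 of 9 passed in either direction by the edgeR quasi-likelihood test with Benjamini-Hochberg adjustment, against 1.46% higher and 0.165% lower of 16409 genes. There, 2 of 9 had an unadjusted p under 0.05 (Ereg and Tgfa), as did 19.6% of all genes, and DESeq2 called the same 2, among 1535 genes in all against 267 by edgeR. The median log2 fold change of the 9 genes was 0.02 (SmoM2), 0.95 (Gnas-eKO) and 0.40 (PKI), beside medians over all genes of 0.001, 0.02 and -0.001. Calls throughout are at an adjusted p under 0.05.

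**Figure D1:**
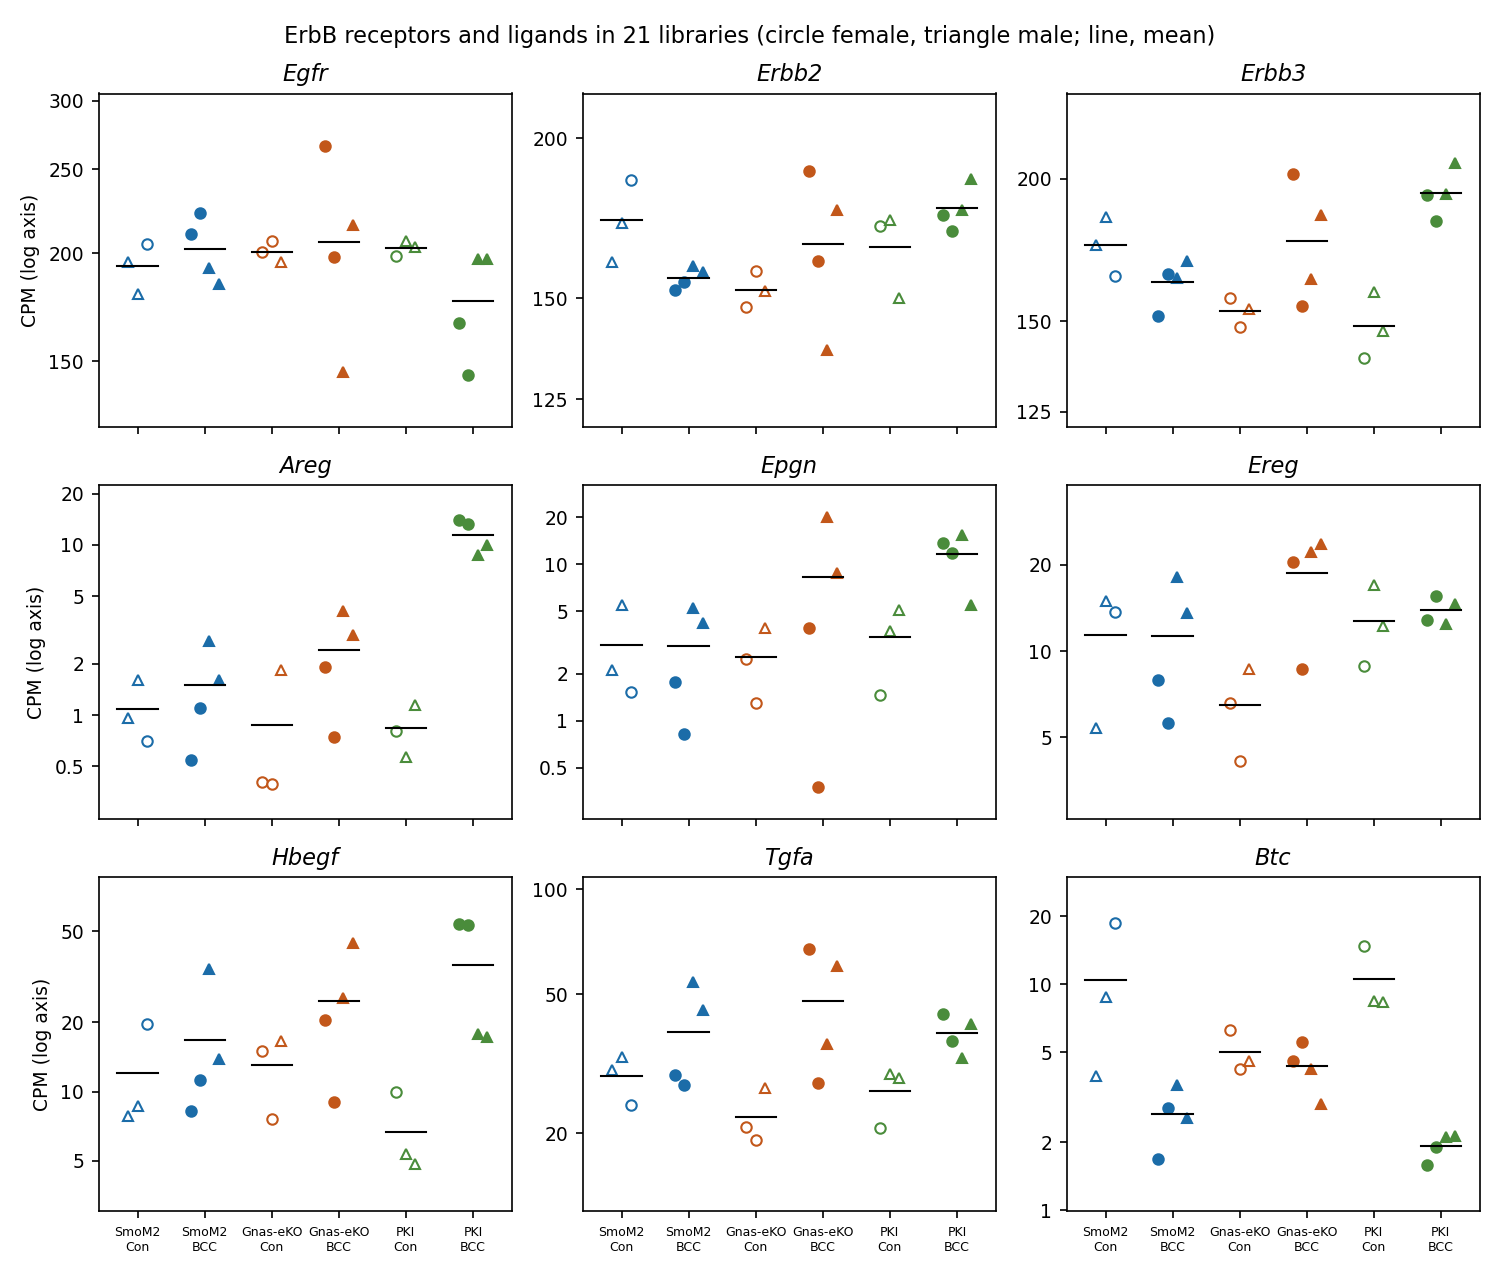
Level of each member in CPM (log axis) in the 21 libraries, by model and group; open symbols are Con, filled symbols BCC, circles females, triangles males and lines group means. Areg in PKI BCC lies at 8.71 to 13.96 CPM, above every other library, while the receptors stay between 136.7 and 265.8 CPM throughout.

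**Figure D2:**
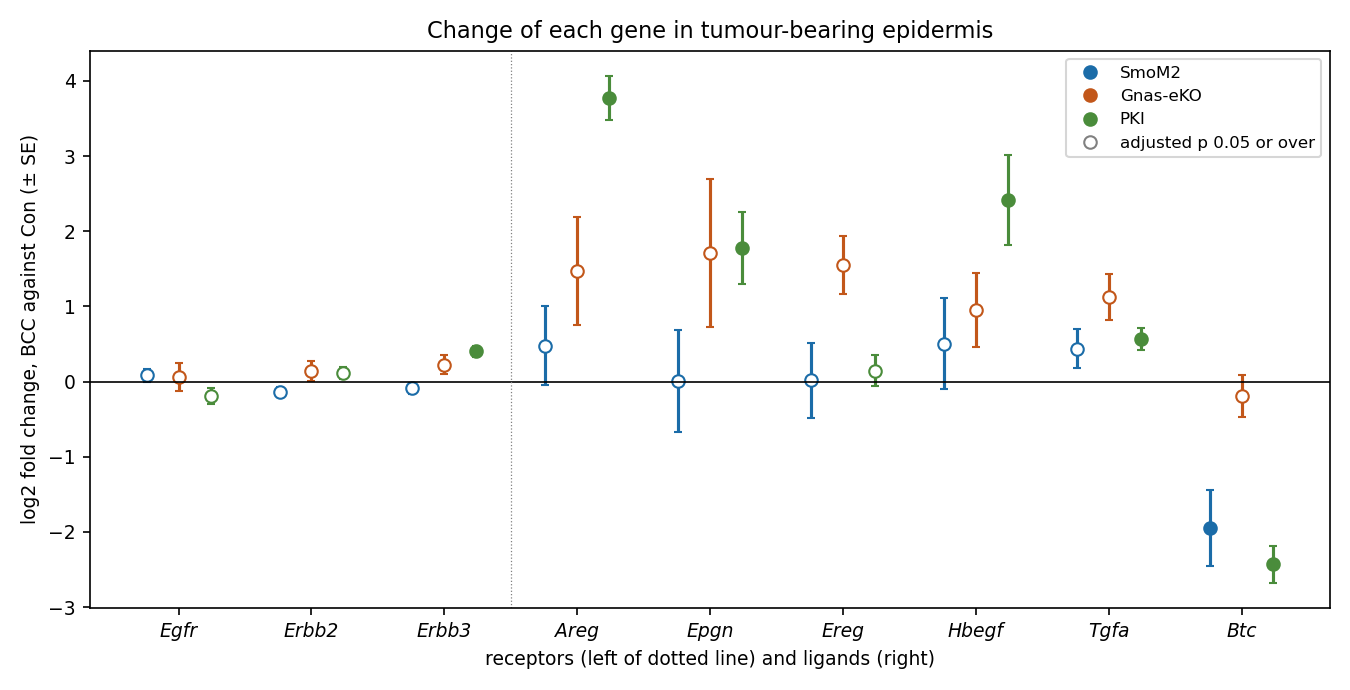
Log2 fold change of BCC against Con with its standard error for the 9 members in the 3 models, filled where the adjusted p was under 0.05. Filled points are Btc in SmoM2 and Areg, Epgn, Hbegf, Tgfa, Btc and Erbb3 in PKI.

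Among the receptors, Erbb3 was the member that changed. It measured 139, 159 and 147 CPM in PKI Con and 194, 184, 194 and 207 CPM in PKI BCC. All 4 BCC libraries lay above all 3 Con libraries, and the log2 fold change was 0.40 (SE 0.08, adjusted p = 0.00374), a 1.32-fold rise. The call held when each library was left out in turn (adjusted p 0.00663 to 0.0188) and under every other alternative run. In SmoM2 BCC, Erbb3 was at 152 to 169 CPM against 164 to 185 CPM in Con (log2 fold change -0.09, SE 0.07, adjusted p = 0.345). In Gnas-eKO it was at 155 to 202 CPM in BCC against 148 to 157 CPM in Con (0.22, SE 0.13, adjusted p = 0.376). The PKI change exceeded the SmoM2 change by 0.50 (SE 0.10, adjusted p = 0.00218). It did not pass against the Gnas-eKO change (difference 0.18, SE 0.14, adjusted p = 0.46).

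Egfr and Erbb2 passed in no model. Egfr measured 198, 206 and 203 CPM in PKI Con and 166, 145, 197 and 197 CPM in PKI BCC. The 4 BCC values lay below the 3 Con values, but the log2 fold change of -0.19 (SE 0.11, adjusted p = 0.205) did not pass. In SmoM2, Egfr read 195.1, 179.3 and 204.9 CPM in Con and 210.2, 222.6, 192.3 and 184.1 CPM in BCC, with overlap (0.08, SE 0.08, adjusted p = 0.499). Scaling moved both comparisons: on raw library totals all 4 SmoM2 BCC libraries (192.2 to 238.9 CPM) lay above the Con libraries (170.2 to 191.5 CPM), and the PKI groups overlapped, at 195.5 to 198.3 CPM in Con and 141.3 to 199.7 CPM in BCC. Erbb2 measured 160, 172 and 186 CPM in SmoM2 Con and 152, 154, 159 and 157 CPM in SmoM2 BCC. There too the BCC values were the lower ones (log2 fold change -0.13, SE 0.07, adjusted p = 0.158), and on raw totals they overlapped, at 156.7 to 173.5 CPM in Con and 162.4 to 165.6 CPM in BCC. In Gnas-eKO BCC both receptors spread widely: Egfr read 265.8, 197.7, 145.7 and 215.2 CPM and Erbb2 188.5, 160.4, 136.7 and 175.7 CPM, against 195.5 to 206.3 and 147.5 to 157.5 CPM in Con. Egfr and Erbb2 overlap antisense or neighbouring transcripts on the other strand (Egfros, Mien1), and whether counting used the strand is not given in the sources used here.

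Areg encodes amphiregulin, a lower-affinity EGFR ligand of epithelia. It measured 0.81, 0.57 and 1.14 CPM in PKI Con and 14.0, 13.3, 8.71 and 10.0 CPM in PKI BCC. Every BCC library was above every Con library, at a mean of 0.841 ± 0.289 CPM (SD, n = 3) in Con and 11.5 ± 2.53 CPM (n = 4) in BCC. The log2 fold change was 3.77 (SE 0.29, adjusted p = 7.75e-05), a 13.7-fold rise and the largest among the 9 members in any model. In SmoM2, Areg was at 0.97, 1.61 and 0.70 CPM in Con and at 0.54, 1.11, 2.74 and 1.61 CPM in BCC, and the groups overlapped (0.48, SE 0.52, adjusted p = 0.542). In Gnas-eKO, it was at 0.41, 0.39 and 1.84 CPM in Con and at 1.92, 0.75, 4.08 and 2.95 CPM in BCC (1.47, SE 0.72, adjusted p = 0.301). There the third Con library was the high one, and 3 of 4 BCC libraries lay above it. The Areg change in PKI exceeded that in SmoM2 by 3.30 (SE 0.63, adjusted p = 0.00228), and this held with each of 14 libraries left out. Against Gnas-eKO the difference was 2.31 (SE 0.81) and did not pass (adjusted p = 0.0905). It passed with DESeq2 (2.31, adjusted p = 0.0277) and limma (1.91, adjusted p = 0.0225), and without Gnas-eKO BCC replicate 3 (2.67, adjusted p = 0.0425). The 9 Con libraries held 7 to 36 Areg counts each, so their levels are imprecise.

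Epgn encodes epigen, another EGFR ligand, and lies next to Ereg. It read 1.47, 3.73 and 5.12 CPM in PKI Con and 13.7, 11.7, 15.3 and 5.48 CPM in PKI BCC. The lowest BCC library was just above the highest Con library, and the log2 fold change was 1.77 (SE 0.48, adjusted p = 0.0235). The call was lost without PKI Con replicate 2 (1.84, adjusted p = 0.0672) and without PKI BCC replicate 1 (1.67, adjusted p = 0.0572), 2 (1.76, adjusted p = 0.0505) or 3 (1.61, adjusted p = 0.0514), and in a joint fit of the 21 libraries (1.76, adjusted p = 0.137). In Gnas-eKO BCC the 4 libraries were far apart, at 3.89, 0.37, 19.95 and 8.79 CPM, against 2.48, 1.29 and 3.89 CPM in Con (1.71, SE 0.98, adjusted p = 0.379). The lowest of these, 7 counts, was replicate 2. In SmoM2, Epgn read 2.11, 5.515 and 1.51 CPM in Con and 1.77, 0.82, 5.24 and 4.18 CPM in BCC, with 3 of 4 BCC values inside the Con range and 1 below it (log2 fold change 0.0017, SE 0.68, adjusted p = 0.999).

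Btc encodes betacellulin, which binds EGFR and ERBB4, and it was the member that fell. It measured 14.8, 8.42 and 8.37 CPM in PKI Con and 1.59, 1.91, 2.10 and 2.14 CPM in PKI BCC. All 4 BCC libraries were below all 3 Con libraries, and Btc fell by 2.43 on the log2 scale (SE 0.25, adjusted p = 0.000234), to 0.186 of the Con level. In SmoM2 it measured 3.91, 8.79 and 18.6 CPM in Con, a wide spread, and 1.68, 2.84, 3.57 and 2.57 CPM in BCC. These BCC values also lay below every Con value, and Btc fell by 1.95 (SE 0.51, adjusted p = 0.0249). That call was lost without SmoM2 Con replicate 2 (-2.06, adjusted p = 0.0512) or SmoM2 BCC replicate 1 (-1.77, adjusted p = 0.0605), 2 (-1.98, adjusted p = 0.0613) or 4 (-1.93, adjusted p = 0.0646). Without the filter on low counts it was lost too (-1.94, adjusted p = 0.0514), and without SmoM2 Con replicate 3, the highest Con library, it held at a smaller change (-1.23, adjusted p = 0.0386). In Gnas-eKO, Btc was at 6.28, 4.20 and 4.55 CPM in Con and at 4.58, 5.57, 4.23 and 2.95 CPM in BCC, with overlap (-0.19, SE 0.28, adjusted p = 0.756). The PKI change was lower than the Gnas-eKO change by 2.23 (log2 difference -2.23, SE 0.38, adjusted p = 0.00426), and this held with each of 14 libraries left out. The changes in PKI and SmoM2 did not differ past the threshold (-0.48, SE 0.60, adjusted p = 0.597). The difference between Gnas-eKO and SmoM2 was 1.76 (SE 0.59, adjusted p = 0.344).

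Epgn, Ereg, Areg and Btc are neighbours. They lie on chromosome 5 of GRCm38 between 91027464 and 91402994, a stretch of 375531 bases in which they are the only 4 protein-coding genes of 7 annotated (GENCODE M21). Areg lies at chr5:91139599-91148432, Ereg at chr5:91074622-91093646 and Epgn at chr5:91027464-91035215 on the plus strand, and Btc at chr5:91357261-91402994 on the minus strand. In PKI their log2 fold changes, in this order along the chromosome, were 1.77, 0.14, 3.77 and -2.43, so genes that share the stretch moved in both directions. In Gnas-eKO they were 1.71, 1.56, 1.47 and -0.19, with none past the threshold. In SmoM2 they were 0.002, 0.02, 0.48 and -1.95. The nearest measured protein-coding gene on one side, Mthfd2l, a mitochondrial folate enzyme, had a log2 fold change of -0.25 (SE 0.18, adjusted p = 0.317) in PKI. Beyond it on that side the chemokine gene Cxcl1 rose in PKI by 4.802 (SE 0.98, adjusted p = 0.00939) and in SmoM2 by 2.29 (SE 0.31, adjusted p = 0.000533), with -0.49 (SE 0.57, adjusted p = 0.685) in Gnas-eKO. Farther out, the chemokine genes Cxcl3 (8.22, SE 1.88, adjusted p = 0.0197) and Cxcl5 (7.82, SE 1.10, adjusted p = 0.00198) rose in PKI. Cxcl3 and Cxcl5 did not pass the filter on low counts in SmoM2 or Gnas-eKO. On the other side Parm1 rose in PKI by 1.42 (SE 0.17, adjusted p = 0.000451), next to Btc, which fell. Parm1 was at -0.66 (SE 0.25, adjusted p = 0.0723) in SmoM2 and 0.16 (SE 0.22, adjusted p = 0.752) in Gnas-eKO.

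**Figure D3:**
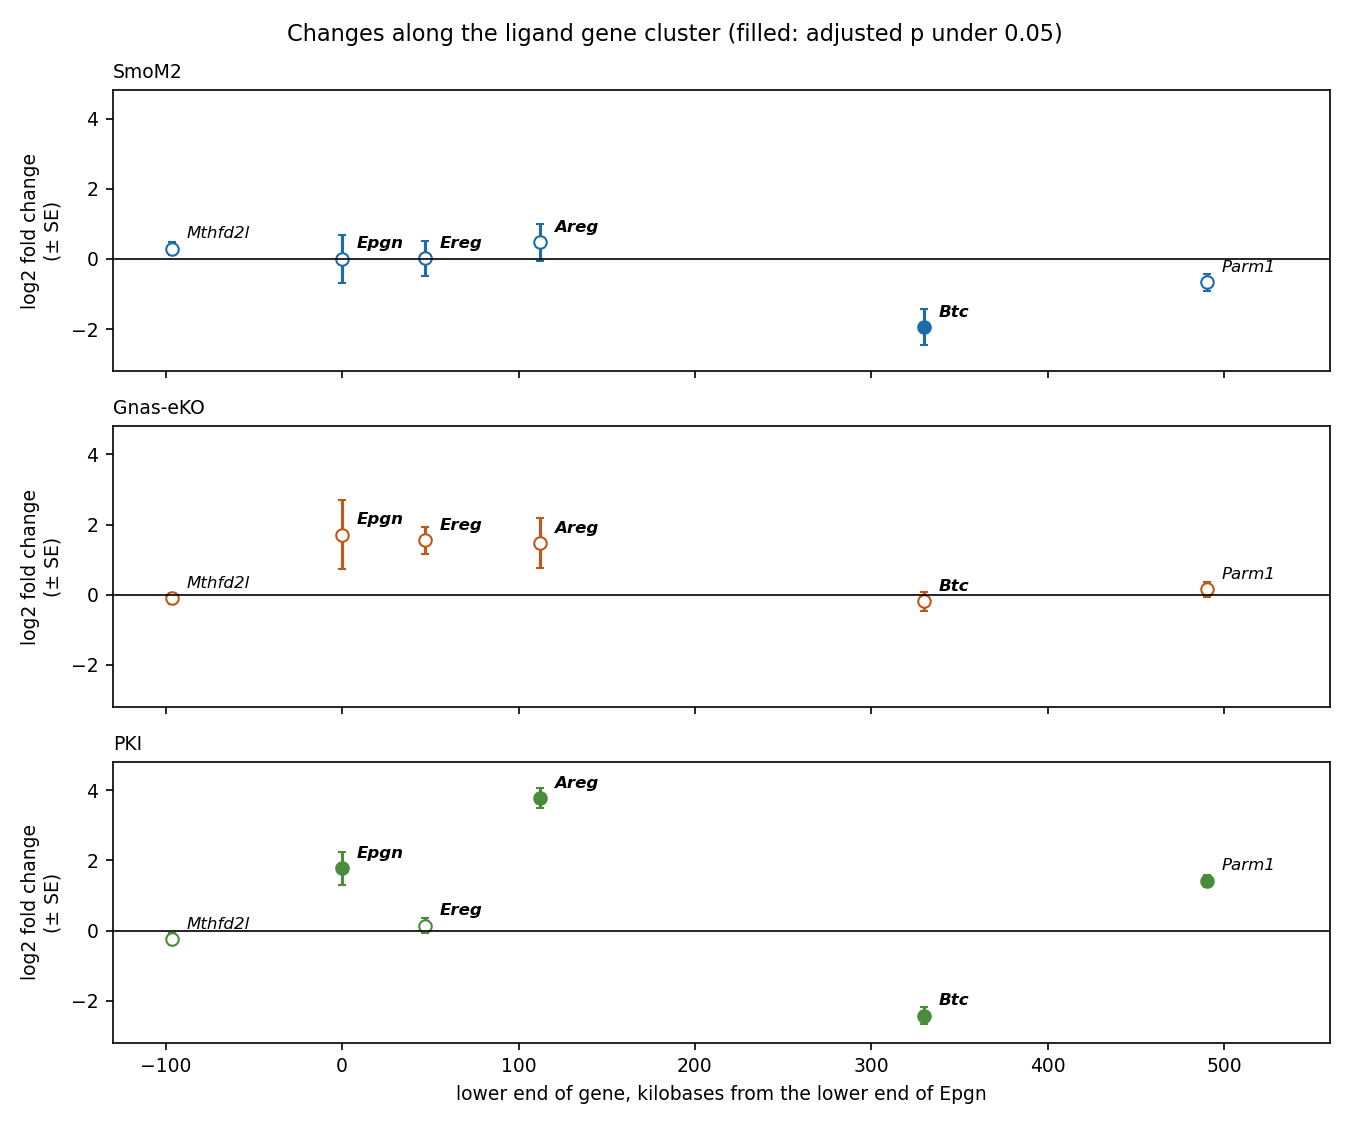
Log2 fold change of BCC against Con, with its standard error, along the ligand cluster, for the 4 ligand genes (bold) and the nearest measured protein-coding gene on either side; the x axis is the distance in kilobases from the lower end of Epgn. In PKI Areg is at 3.77, Ereg at 0.14 and Btc at -2.43.

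Promoter windows of RefSeq genes (GRCm38.p6, 250 bases before to 50 after the transcript start) were matched by symbol for Areg, Epgn, Btc, Tgfa, Egfr and Erbb2. The windows of Areg, Epgn and Btc are shown because these 3 cluster genes changed in PKI, in opposite directions. Capitals mark each match, on either strand, to the palindromic cAMP response element (CRE) TGACGTCA, the AP-1 motif TGANTCA, the GLI core ACCACCC or the TATA motif TATAAA; the windows lie at chr5:91139349-91139648 (plus strand), chr5:91027267-91027566 (plus strand) and chr5:91402945-91403244 (minus strand), in this order.
Areg: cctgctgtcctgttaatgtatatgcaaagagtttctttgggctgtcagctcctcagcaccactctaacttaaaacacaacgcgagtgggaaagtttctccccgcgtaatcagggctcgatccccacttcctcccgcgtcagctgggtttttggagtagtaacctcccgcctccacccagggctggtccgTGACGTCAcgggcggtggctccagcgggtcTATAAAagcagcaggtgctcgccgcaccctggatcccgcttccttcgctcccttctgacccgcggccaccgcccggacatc
Epgn: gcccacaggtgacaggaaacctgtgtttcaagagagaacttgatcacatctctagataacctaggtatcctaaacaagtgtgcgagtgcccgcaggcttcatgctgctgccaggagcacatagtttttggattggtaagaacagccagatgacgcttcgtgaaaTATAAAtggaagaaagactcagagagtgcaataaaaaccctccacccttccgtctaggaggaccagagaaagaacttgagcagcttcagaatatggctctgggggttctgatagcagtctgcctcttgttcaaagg
Btc: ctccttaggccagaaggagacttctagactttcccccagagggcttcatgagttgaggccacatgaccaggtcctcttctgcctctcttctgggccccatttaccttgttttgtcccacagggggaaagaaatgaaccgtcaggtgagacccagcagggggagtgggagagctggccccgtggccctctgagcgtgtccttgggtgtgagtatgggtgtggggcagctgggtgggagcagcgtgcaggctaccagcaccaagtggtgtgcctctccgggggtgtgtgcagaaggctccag
The Areg window holds the full CRE with its first base at -61 from the start and a TATAAA at -31. Of 32851 promoter windows of this length 1.79% hold the full CRE and 13.6% the TATA motif on either strand. Positions are counted from the RefSeq start, which for Epgn lies inside the GENCODE gene, downstream of the gene start given above. The Epgn window holds a TATAAA at -86 and, not capitalised, the shorter CRE core TGACG at -101, which 20.8% of windows hold and which is also part of the full CRE. The Btc window holds that core on the other strand at -113 and none of the capitalised motifs. On the other strand the core is also at -115 in the Areg window, outside the full CRE, and at -171 in the Erbb2 window. The Tgfa window holds the GLI core on the other strand at 2 positions, -52 and 42, and 4.61% of windows hold it at least once. AP-1 letters, in 7.81% of all windows, are in none of these 6. A match in letters is a description of the sequence and says nothing about binding.

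Hbegf encodes heparin-binding EGF-like growth factor, a ligand of EGFR and ERBB4 known from wounded epidermis. It measured 9.91, 5.315 and 4.82 CPM in PKI Con and 53.8, 53.3, 17.9 and 17.3 CPM in PKI BCC. The lowest BCC library exceeded the highest Con library, and the log2 fold change was 2.42 (SE 0.59, adjusted p = 0.0222). The BCC libraries formed 2 pairs: replicates 1 and 2 were female and replicates 3 and 4 male. Within females the mean was 53.5 CPM in BCC against 9.91 CPM in the single Con library, a ratio of 5.40, and within males 17.6 against 5.07 CPM, a ratio of 3.48. The call was lost without PKI Con replicate 2 (2.28, adjusted p = 0.0739), Con replicate 3 (2.23, adjusted p = 0.0723) or BCC replicate 1 (2.13, adjusted p = 0.0535), and without the filter on low counts (2.42, adjusted p = 0.0505). With sex as a covariate, an alternative added after seeing the data, the adjusted p was 1.17e-05. In SmoM2, Hbegf read 7.81, 8.62 and 19.6 CPM in Con and 8.25, 11.2, 34.1 and 13.9 CPM in BCC (0.50, SE 0.60, adjusted p = 0.592). In Gnas-eKO, it read 15.0, 7.56 and 16.5 CPM in Con and 20.6, 9.00, 25.5 and 44.4 CPM in BCC (0.95, SE 0.49, adjusted p = 0.327). The PKI change did not pass against that in SmoM2 (difference 1.91, SE 0.88, adjusted p = 0.139), although it did without SmoM2 BCC replicate 3 (2.51, adjusted p = 0.0391), nor against that in Gnas-eKO (1.48, SE 0.79, adjusted p = 0.267).

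Tgfa encodes transforming growth factor alpha, an autocrine EGFR ligand of keratinocytes, from chr6:86195223-86275719 (plus strand). It rose in PKI, from 20.6, 29.6 and 28.8 CPM in Con to 43.8, 36.8, 32.8 and 41.2 CPM in BCC. The groups did not overlap, and the log2 fold change was 0.57 (SE 0.15, adjusted p = 0.017), a 1.48-fold rise. That call held with each library left out, and it was lost in a joint fit of the 21 libraries (0.56, adjusted p = 0.142). In Gnas-eKO, Tgfa was at 20.9, 19.2 and 26.9 CPM in Con and at 67.6, 27.8, 36.1 and 60.2 CPM in BCC. These groups did not overlap either, at a larger log2 fold change of 1.13 (SE 0.31) that did not pass (adjusted p = 0.106). Without Gnas-eKO BCC replicate 2, the lowest of the 4, it passed (1.32, adjusted p = 0.014), as it did with DESeq2 (adjusted p = 0.0104) and in the joint fit (adjusted p = 0.0124). In SmoM2 it was at 30.4, 33.1 and 24.1 CPM in Con and at 29.3, 27.6, 54.3 and 45.1 CPM in BCC (0.43, SE 0.26, adjusted p = 0.26). The 2 high SmoM2 BCC libraries were males, and with sex as a covariate the change was 0.50 (adjusted p = 0.00798). The Tgfa changes did not differ past the threshold between any 2 models (PKI minus SmoM2 0.14, SE 0.31; PKI minus Gnas-eKO -0.55, SE 0.37; Gnas-eKO minus SmoM2 0.70, SE 0.43).

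Ereg encodes epiregulin, a ligand of EGFR and ERBB4. In Gnas-eKO it read 6.59, 4.15 and 8.70 CPM in Con and 20.5, 8.67, 22.2 and 23.7 CPM in BCC. In BCC, 3 libraries were well above Con and replicate 2 was at the level of the highest Con library. The log2 fold change of 1.56 (SE 0.38) did not pass (adjusted p = 0.0821). It passed without Gnas-eKO BCC replicate 2 (1.80, adjusted p = 0.0054), with DESeq2 (adjusted p = 0.00165) and in the joint fit (adjusted p = 0.0207). In PKI, Ereg was at 8.90, 17.0 and 12.2 CPM in Con and at 12.8, 15.6, 12.4 and 14.6 CPM in BCC, within the Con range (0.14, SE 0.21, adjusted p = 0.622). In SmoM2 the values were 5.38, 14.9 and 13.7 CPM in Con and 7.94, 5.64, 18.1 and 13.7 CPM in BCC (0.02, SE 0.50, adjusted p = 0.984). The PKI change was lower than the Gnas-eKO change by 1.41 (log2 difference -1.41, SE 0.46), which did not pass (adjusted p = 0.0712). It passed with DESeq2 (-1.41, adjusted p = 0.0237) and without Gnas-eKO BCC replicate 2 (-1.65, adjusted p = 0.00912). Ereg shares bases with Gm19610 on the other strand, and reads of both cannot be told apart if counting ignored the strand.

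Of 9 differences of the PKI change from the SmoM2 change, 2 passed (Areg and Erbb3), beside 24.9% of 17261 genes, so the share of members was near the background. Of 9 differences between PKI and Gnas-eKO, 1 passed (Btc), beside 9.06% of 17254 genes. Between Gnas-eKO and SmoM2, 0 of 9 passed by edgeR, beside 0.175% of 17151 genes, 3 had an unadjusted p under 0.05 (Erbb3, Ereg and Btc), as did 8.74% of all genes, and DESeq2 called 0. These 3 contrasts share libraries, so they are not independent of each other. For Erbb2 the difference of PKI from SmoM2 was 0.25 (SE 0.10) and did not pass (adjusted p = 0.0701), but it passed with DESeq2 (0.25, adjusted p = 0.044) and without SmoM2 Con replicate 1 (0.30, adjusted p = 0.0421).

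Summed over the 6 ligands per kilobase, PKI libraries went from 13.4 ± 1.14 CPM per kilobase in Con (SD, n = 3) to 33.0 ± 7.52 in BCC (n = 4), with ranges of 12.1 to 14.2 and 25.2 to 40.4. In Gnas-eKO the sum was 10.9 ± 3.43 in Con and 24.6 ± 10.2 in BCC, where replicate 2, at 10.3, was within the Con range. In SmoM2 it was 14.6 ± 3.63 in Con and 15.7 ± 7.54 in BCC. Areg made up 5.17% ± 1.73 of the ligand sum in PKI Con and 28.8% ± 2.89 in PKI BCC. Hbegf went from 10.6% ± 5.48 to 20.9% ± 8.34, Epgn from 13.8% ± 6.78 to 19.5% ± 7.79, Tgfa from 30.0% ± 3.30 to 18.7% ± 4.52, Ereg from 22.7% ± 5.82 to 10.6% ± 2.64 and Btc from 17.8% ± 7.95 to 1.38% ± 0.471. In SmoM2 BCC Btc made up 4.11% ± 1.52 and Tgfa 40.2% ± 5.58, against 14.9% ± 8.71 and 32.5% ± 11.5 in SmoM2 Con. The sum of the 3 receptors per kilobase had group means of 72.4 to 81.7 CPM per kilobase, and the ratio of ligand to receptor sum was 0.182 ± 0.0159 in PKI Con and 0.408 ± 0.113 in PKI BCC. That ratio was 0.151 ± 0.0485 and 0.315 ± 0.147 in Gnas-eKO and 0.184 ± 0.0422 and 0.211 ± 0.101 in SmoM2. The sums, shares and ratios use merged exons and were not computed with the longest annotated transcript. With that length the level over the Con libraries was 3.66 CPM per kilobase for Hbegf, 5.73 for Tgfa and 19.5 for Egfr. With merged exons it was 2.19, 4.00 and 17.6, so which ligand holds the largest share can depend on the length chosen.

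**Figure D4:**
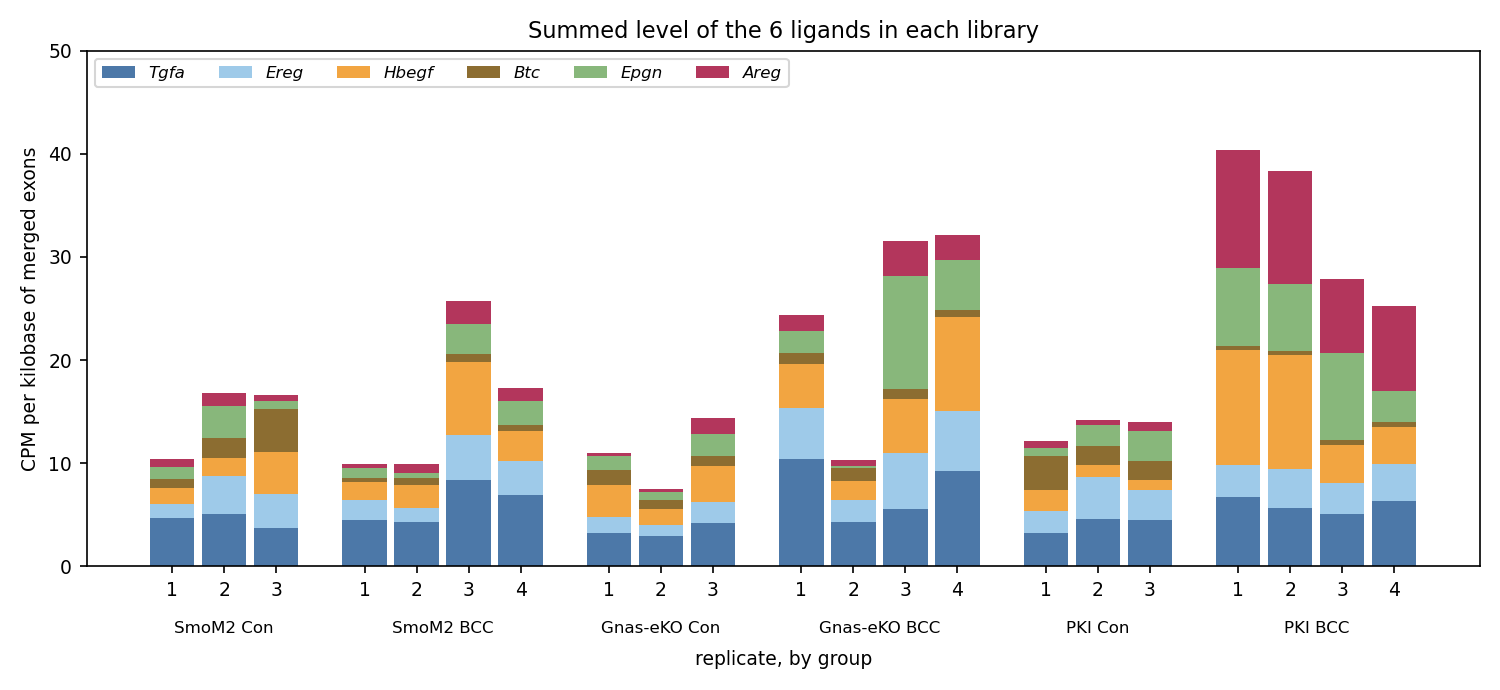
Stacked levels of the 6 ligands in each of the 21 libraries, in CPM per kilobase of merged exons, from 0. The PKI BCC bars reach 25.2 to 40.4 and are the ones with a wide Areg block, and Gnas-eKO BCC replicate 2, at 10.3, is as low as its Con libraries.

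Markers of other cells also differed between PKI Con and BCC, in a model where 18.7% of all genes rose and 15.8% fell. All 5 leukocyte markers rose in PKI BCC, with a summed level of 8.07 to 20.9 CPM in Con and 53.6 to 126 CPM in BCC, as did 8 of 9 Langerhans cell and macrophage markers (65.3 to 203 and 489 to 934 CPM). T cell markers rose for 5 of 6 tested (6.20 to 12.95 and 15.6 to 32.9 CPM), the 1 neutrophil marker tested rose (3 markers summed, 1.08 to 3.29 and 6.03 to 12.2 CPM, Csf3r at 0 in every PKI Con library), and 5 of 7 melanocyte markers fell (170 to 220 and 83.3 to 133 CPM). The leukocyte sum was 12.65 to 14.5 CPM in SmoM2 Con and 10.9 to 16.3 CPM in SmoM2 BCC, and 17.9 to 18.4 and 15.65 to 41.4 CPM in Gnas-eKO. The fibroblast sum did not overlap between Con and BCC in any model. It was 17.2 to 39.8 and 388 to 524 CPM in SmoM2, 16.0 to 27.7 and 93.6 to 578 CPM in Gnas-eKO, and 15.95 to 43.55 and 84.6 to 145 CPM in PKI. Of 6 tested markers, 2, 1 and 3 rose in SmoM2, Gnas-eKO and PKI (16.2%, 1.46% and 18.7% of all genes rose). Their median log2 fold changes were 1.455, 3.073 and 1.828, beside 0.001, 0.02 and -0.001 over all genes. In Gnas-eKO, 5 of the 6 had an unadjusted edgeR p under 0.05, as did 19.6% of all genes. DESeq2 called 5 there, among 1535 genes in all against 267 by edgeR. Dcn, the decorin gene, made up most of that sum in BCC (means of 440, 246 and 88.4 CPM in SmoM2, Gnas-eKO and PKI), while Col1a1 was at 1.56 ± 0.351 CPM in SmoM2 Con and 1.97 ± 1.16 CPM in SmoM2 BCC. The keratinocyte marker sum was 58090 to 75060 CPM in SmoM2 Con and 39540 to 54380 CPM in SmoM2 BCC, and 58730 to 70380 and 31320 to 51950 CPM in Gnas-eKO, without overlap. In PKI it was 53520 to 72110 and 47580 to 76820 CPM. Single keratinocyte markers went both ways. Of 10, 2 rose and 6 fell in SmoM2, beside 16.2% and 13.5% of all genes. In PKI, 2 rose (Krt1 and Dsg3) and 4 fell, beside 18.7% and 15.8%. In Gnas-eKO 0 passed by edgeR, 2 had an unadjusted p under 0.05, as did 19.6% of all genes, and DESeq2 called 2. The part of all these markers in the ligand changes was not tested. In bulk RNA, more cells of a type and more RNA per cell cannot be told apart.

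Of the remaining receptor and ligands of the family, Nrg3 has no row in the table and Erbb4, with group means of at most 0.555 CPM, did not pass the filter in any model. Nrg2, a neuregulin, fell in SmoM2 by 2.11 (SE 0.25, adjusted p = 0.000225) and in PKI by 0.84 (SE 0.27, adjusted p = 0.0391). In Gnas-eKO it was at 9.35 ± 2.69 CPM in Con and 2.03 ± 2.54 CPM in BCC (-2.20, SE 0.75, adjusted p = 0.159). Nrg4 rose in SmoM2 (0.83, SE 0.25, adjusted p = 0.0315) and fell in PKI (-1.24, SE 0.31, adjusted p = 0.0135), and these changes differed (-2.08, SE 0.43, adjusted p = 0.00351). Nrg1, a ligand of ERBB3 and ERBB4, rose in PKI by 1.00 (SE 0.27, adjusted p = 0.0185), and Egf passed in no model. Of 4 genes of this list tested, 1 rose and 1 fell in SmoM2 (16.2% and 13.5% of all genes), and 1 rose and 2 fell in PKI (18.7% and 15.8%). In Gnas-eKO 0 passed by edgeR, 1 had an unadjusted p under 0.05, as did 19.6% of all genes, and DESeq2 called 1. The PKI count dropped from 3 to 1 without PKI Con replicate 1 or in the joint fit, and the SmoM2 count from 2 to 1 in the joint fit and without any 1 of the 3 Con libraries or BCC replicate 1 or 2.

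The machinery that frees the ligands changed in both directions. In PKI, 4 of 11 sheddases and their partners rose and 4 fell (8 in all, 5 without PKI Con replicate 2), beside 18.7% and 15.8% of all genes. Adam10, a main sheddase of betacellulin, rose by 0.73 (SE 0.08, adjusted p = 0.000281), and Adam17, the main sheddase of amphiregulin and TGF alpha, fell by 0.24 (SE 0.06, adjusted p = 0.0191). Rhbdf1, whose product iRhom1 carries ADAM17 to the cell surface, fell by 0.54 (SE 0.09, adjusted p = 0.00183), and Adam19 rose by 2.89 (SE 0.33, adjusted p = 0.000398). In SmoM2, 3 of 10 tested rose and 2 fell, beside 16.2% and 13.5% of all genes: Timp3, an inhibitor of ADAM17, rose by 1.30 (SE 0.11, adjusted p = 3.12e-05), and Adam17 fell by 0.39 (SE 0.10, adjusted p = 0.0128). Adam10 rose more in PKI than in SmoM2 (difference 0.63, SE 0.11, adjusted p = 0.00133) and than in Gnas-eKO (0.57, SE 0.13, adjusted p = 0.0173). In Gnas-eKO 0 of 11 passed by edgeR, 3 had an unadjusted p under 0.05, as did 19.6% of all genes, and DESeq2 called 2.

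Feedback inhibitors of the receptors changed in both directions too. In SmoM2, 8 of 19 rose and 1 fell, beside 16.2% and 13.5% of all genes (9 in all, 5 in the joint fit and 6 without SmoM2 Con replicate 1 or 2), among them Lrig1, which marks EGFR for degradation, up by 1.19 (SE 0.10, adjusted p = 2.03e-05), and Dusp6, an ERK phosphatase, up by 0.97 (SE 0.24, adjusted p = 0.021). In PKI, 4 rose and 4 fell: Dusp6 rose by 1.93 (SE 0.28, adjusted p = 0.00213) and Spry4 by 1.69 (SE 0.25, adjusted p = 0.0012), while Spry1 fell by 0.68 (SE 0.14, adjusted p = 0.00578) and Spred1 by 0.46 (SE 0.12, adjusted p = 0.0139). Lrig1 in PKI was at 0.02 (SE 0.12, adjusted p = 0.924), and its change was lower there than in SmoM2 (-1.17, SE 0.17, adjusted p = 0.000253). Of 17 adaptors and kinases of the ERK cascade, 1 rose and 3 fell in SmoM2 (4 in all, 1 without SmoM2 Con replicate 2 or BCC replicate 1 or 2), and 3 rose and 1 fell in PKI (4 in all, 2 without PKI Con replicate 2). Beside the 18.7% of all genes that rose and 15.8% that fell in PKI, the shares of both lists there were near or below the background. In Gnas-eKO edgeR called 0 genes of both lists. There 4 feedback inhibitors and 3 cascade genes had an unadjusted p under 0.05, as did 19.6% of all genes, and DESeq2 called 2 and 0. Without Gnas-eKO BCC replicate 2 edgeR called 4 and 0, among 1910 genes in all against 267 with it.

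Among genes known to be induced by ERK signalling, more rose than fell in PKI. Of 15, 10 rose and 1 fell in PKI BCC, beside 18.7% and 15.8% of all genes, at a median log2 fold change of 0.825. Fosl1, an AP-1 subunit, rose by 3.26 (SE 0.54, adjusted p = 0.00298), Plaur, the urokinase receptor, by 2.45 (SE 0.46, adjusted p = 0.00346), Egr1 by 1.80 (SE 0.41, adjusted p = 0.0165) and Etv4 by 1.48 (SE 0.21, adjusted p = 0.0013), while Etv5 fell by 1.03 (SE 0.14, adjusted p = 0.000803). The count of 11 was 6 (5 risen) without PKI Con replicate 2 and 7 (6 risen) without PKI Con replicate 3. In SmoM2, 3 rose (Plaur, Phlda1 and Etv4) and 1 fell (Myc), beside 16.2% and 13.5% of all genes, 4 in all and 2 without SmoM2 Con replicate 3 or BCC replicate 4. In Gnas-eKO the median was 0.81, but 0 of 15 passed by edgeR, 8 had an unadjusted p under 0.05 (19.6% of all genes), DESeq2 called 8, and edgeR called 8 without Gnas-eKO BCC replicate 2. Over all genes these settings called 1535 and 1910, against 267 in the main test. Of the 15, 4 had a higher change in PKI than in SmoM2 (Fosl1, Jun, Junb and Ier2, by 1.11 to 2.74) and 1 a lower one (Etv5, -1.04), beside 12.6% and 12.3% of all genes. The rise in leukocyte markers given above accompanied these PKI changes too, and its part in them was not tested.

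**Figure D5:**
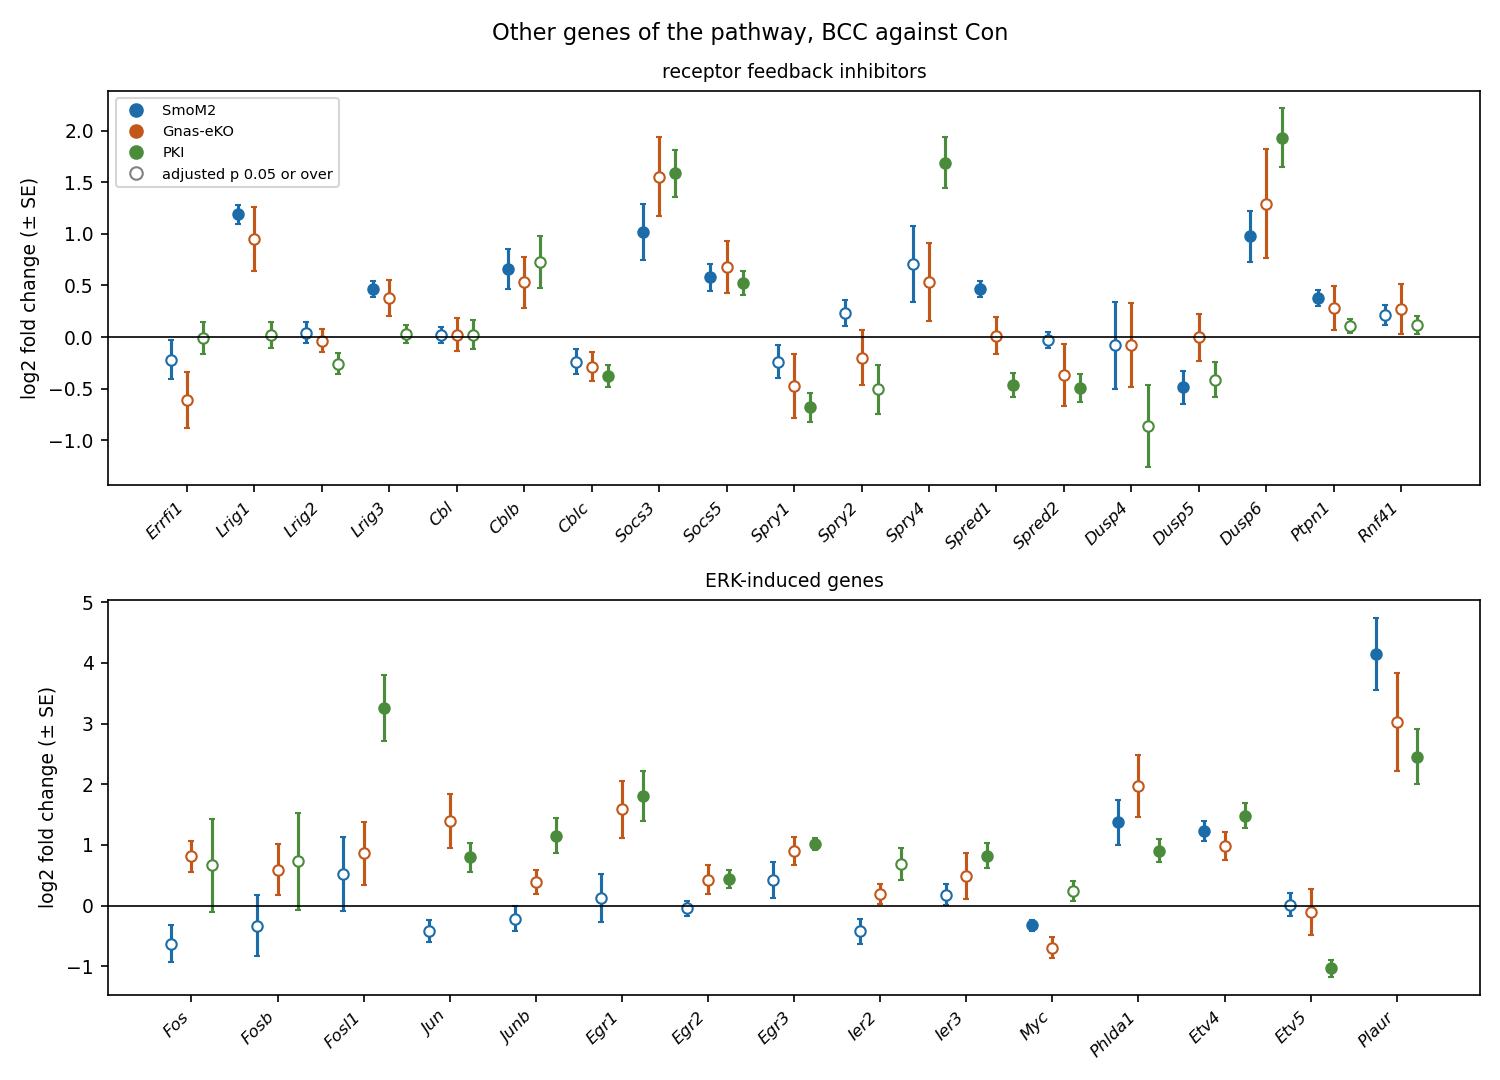
Log2 fold change of BCC against Con with its standard error for 19 receptor feedback inhibitors (top) and 15 ERK-induced genes (bottom), by model, filled where the adjusted p was under 0.05. In the lower panel 10 PKI points above 0 and 1 below are filled, and all Gnas-eKO points in both panels are open.

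For each member the genes with the most similar pattern were named by Pearson's r of log2 CPM over the 21 libraries, among 12030 genes averaging 2 or more on that scale. These values describe libraries that share groups, batches and depth, and carry no test. Areg was closest to Krt6a, a keratin of wounded and hyperproliferative epidermis (r = 0.925), and to Stmn1, a microtubule regulator (0.923). Btc was closest to Appl2 (0.935) and Aloxe3, a lipoxygenase of the skin barrier (0.928), and Hbegf to Smndc1 (0.897) and the ERK phosphatase gene Dusp6 (0.894). Ereg was closest to Sdcbp2 (0.907) and Fam89a (0.894), Epgn to Klk13 (0.887) and Chchd4 (0.883), and Tgfa to Prss12 (0.896) and Ephb3 (0.895). The receptors were closest to Zfp148 (0.915) and Crebbp (0.907) for Egfr, Zfp608 (0.864) and 4931406P16Rik (0.856) for Erbb2, and Trak2 (0.880) and Slc43a2 (0.849) for Erbb3. Among the members themselves r was highest between Areg and Epgn (0.77) and between Ereg and Tgfa (0.74), and lowest between Areg and Btc (-0.60).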

How the data were processed

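RNA of 21 tail keratinocyte libraries was measured, with reads per gene deposited by the authors as estimated counts (33.1% of values are not whole) on mm10. The submitters' processing notes name bcl2fastq 2.20, cutadapt 1.18, STAR 2.7.0f and Partek, and the labels' protocols name a stranded polyA preparation; the use of strand in counting is not given in the sources used here. The labels record no molecular identifiers, so floors cover counting error only. A second table, used for alternatives, holds the authors' normalized signal: each count multiplied by 1 factor for its library, with 0.001 added, and called TMM in its name.

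Estimated counts were rounded and tested with edgeR 4.0.16 (R 4.3.3): filterByExpr by group, TMM, robust quasi-likelihood fit, Benjamini-Hochberg adjustment over all genes tested. Each model's BCC and Con libraries (7) were fitted on their own, and changes of 2 models were compared by an interaction contrast over their 14 libraries. Standard errors were derived from the fold change and its quasi-likelihood F (size over root of F). Lengths and gene positions are from GENCODE M21; 22882 of 23713 deposited ends lie 1 past the annotated end. Alternatives in edgeR were relative log expression (RLE) scaling in place of TMM, no filter on low counts, a replicate block, each library left out and a joint fit of the 21 libraries. Others were the Wald test of DESeq2 1.42.0, limma 3.58.1 on log2(normalized signal + 1) and other level scales. Sex as a covariate in edgeR was added after seeing the data. Replicates always differed by more than sampling noise, with a lowest chi-square of 8.93 for each degree of freedom. The fits were tested on simulated data. Named genes are the 9 members, genes that overlap them or lie near the ligand cluster, Gnas, Xist, markers beside a result, and for each member the 2 genes of highest r. Pathway-list genes are named where they passed in a model, with the remaining ErbB receptor and ligands named whether they passed or not. Members and lists were chosen with earlier results of these data known.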

Additional observations from a re-analysis of the deposited data

Results flagged for a closer look

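Areg changed more in PKI than in SmoM2: the difference of the 2 log2 fold changes was 3.30 (SE 0.63, edgeR adjusted p = 0.00228), with all 4 PKI BCC libraries above all 3 PKI Con libraries and overlapping groups in SmoM2. Erbb3 also changed more in PKI than in SmoM2, by 0.50 (SE 0.10, adjusted p = 0.00218). The change of Btc was lower in PKI than in Gnas-eKO, with a difference of -2.23 (SE 0.38, adjusted p = 0.00426). Each is a difference between models that passed its own interaction test, and model, batch and day cannot be told apart. Among the 27 sets of 4 BCC libraries, 1 per member and model, Dixon's test found 0 libraries outside their set, where chance gives about 1 in 20.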

How the results depend on the processing

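Of 378 alternative values for member changes within a model, 336 kept direction and side of the threshold, 16 lost a call, 7 gained one and 19 turned sign; of 567 for differences between models the numbers were 530, 0, 12 and 25. The calls of Areg, Erbb3 and Btc in PKI, and their 3 called differences, held in all alternatives run. For the other values the cause was not tested. Levels moved by less than 1 SD in 108 of 117 cases, and list counts stayed within 1.5 times in 342 of 420. The replicate numbers did not pair the libraries (mean correlation of same-numbered deviations -0.11 for SmoM2, 0.11 for Gnas-eKO, 0.14 for PKI). With that block Tgfa in PKI had an adjusted p of 0.0679, Areg and Ereg passed in PKI minus Gnas-eKO (adjusted p 0.0444 and 0.0372), and Hbegf passed in PKI minus SmoM2 (0.00702) and PKI minus Gnas-eKO (0.0158).

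Counts of members called: SmoM2, 1, was 0 without the filter, 2 with sex as a covariate and 0 to 1 with a library left out. Gnas-eKO, 0, was 2 with DESeq2 and the joint fit and 0 to 2 with a library left out. PKI minus Gnas-eKO, 1, was 3 with DESeq2, 4 with the replicate block, 2 with limma and 1 to 2 with a library left out. PKI, 6, was 5 without the filter, 5 with the replicate block, 4 in the joint fit and 4 to 6 with a library left out. Counts of all genes called: Gnas-eKO, 267, was 1535 with DESeq2, 135 with the replicate block, 2644 in the joint fit, 106 with sex as a covariate and 0 to 1910 with a library left out. PKI minus Gnas-eKO, 1564, was 2389 with DESeq2, 925 with the replicate block and 673 to 2512 with a library left out. Gnas-eKO minus SmoM2, 30, was 212 with DESeq2, 66 in the joint fit, 48 with limma and 14 to 79 with a library left out.

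Signs turned only for changes that did not pass with all libraries. Epgn, BCC against Con in SmoM2, became -0.0042 with RLE scaling in edgeR, -0.010 with DESeq2, -0.32 with the replicate block, -0.014 in the joint fit and -0.043 with limma. Ereg, BCC against Con in SmoM2, became -0.11 with the replicate block and -0.017 with sex as a covariate. Egfr, BCC against Con in Gnas-eKO, became -0.0035 and Erbb2, PKI effect minus Gnas-eKO effect, 0.00022 with the replicate block, and Egfr, Gnas-eKO effect minus SmoM2 effect, 0.042 with sex as a covariate. With a library left out, changes in SmoM2 ranged from -0.33 to 0.26 for Ereg, from -0.093 to 1.05 for Hbegf and from -0.41 to 0.73 for Epgn. In Gnas-eKO they ranged from -0.086 to 0.19 for Egfr and from -0.33 to 0.0015 for Btc, and for Ereg in PKI from -0.066 to 0.4085. The PKI minus SmoM2 difference ranged from -0.13 to 0.47 for Ereg and from -0.011 to 0.3365 for Tgfa, PKI minus Gnas-eKO from -0.10 to 0.040 for Erbb2 and from -0.36 to 0.98 for Epgn, and Gnas-eKO minus SmoM2 from -0.17 to 0.11 for Egfr and from -0.092 to 1.06 for Hbegf. Depth limits Areg and Epgn most, with as few as 7 counts in a library.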
